A study of Mus musculus with 8 samples.

Results

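The genes described here are 10 ligands and receptors of BDNF and activin signalling, taken by symbol from the 15437 genes counted by RNA-Seq in the mouse temporal association cortex (TeA). They are the ligand gene Bdnf, its receptor genes Ntrk2 and Sort1, the related neurotrophin receptor gene Ntrk3, the activin subunit genes Inhba and Inhbb, and the activin receptor genes Acvr1, Acvr1b, Acvr2a and Acvr2b. All 10 were found in the table. All mice were male C57BL/6, heterozygous for the reporter (Arc-dVenus +/-), 60 to 90 days old and killed 6 h after behavior. The reporter is a destabilized Venus fluorophore under the Arc promoter, which responds to activity, so that recently active neurons fluoresce. Fear conditioned (FC) mice received 7 tones paired with footshocks, and shock-only mice received 7 footshocks with no tone. Venus+ cells were picked by hand from protease-treated, dissected TeA and pooled within a mouse, which gave 3 FC libraries (FC39, FC40 and FC23) and 2 shock-only libraries (Shock30 and Shock33), named by the number of cells in the pool. The 3 bulk-tissue libraries, 1 FC (T_FC1) and 2 shock-only (T_S1 and T_S2), came from TeA treated with the same protease but not sorted, although the labels call every sample cortical neurons. No mouse without shock was sequenced among the 8 libraries, so no level described here is an untreated baseline.

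BDNF is a secreted neurotrophin whose transcription rises with neuronal activity. It signals through TrkB, the receptor tyrosine kinase that Ntrk2 encodes, while TrkC, from Ntrk3, is the receptor of neurotrophin-3, and sortilin, from Sort1, binds the BDNF precursor and takes part in its sorting and release. Activins are dimers of the inhibin beta subunits that Inhba and Inhbb encode. They bind the type II receptors encoded by Acvr2a and Acvr2b, which then recruit and phosphorylate a type I receptor such as the product of Acvr1b, and SMAD2 and SMAD3 carry the signal to the nucleus. In forebrain neurons, Inhba is itself an activity-regulated gene. The authors also used Inhba as a layer marker of excitatory neurons. No sorted neurons without Venus were sequenced, so activity and cell type or layer cannot be told apart in a comparison with bulk tissue.

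Counts per library summed to between 10223586 and 24151755 in the Arc-dVenus+ libraries and to between 7110598 and 9846374 in bulk tissue. Despite the higher totals, 1500 to 2631 of the 15437 genes had no count in each Arc-dVenus+ library, against 108 to 131 in bulk tissue. The part of lost transcripts in counts of 0 was not tested. Levels are given as CPM, the count of a gene relative to the sum of all counts in that library. Of the 6 excitatory neuron markers, 2 rose in Arc-dVenus+ cells and none fell, with a summed level of 5947 to 7383 CPM against 7711 to 8568 CPM in bulk tissue. Of 39 tested markers of inhibitory neurons, astrocytes, oligodendrocytes and their precursors, microglia and vascular cells, 30 fell and none rose. Summed inhibitory markers were at 33.5 to 43.3 CPM against 701 to 711 CPM, and summed astrocyte markers at 928 to 1517 CPM against 8054 to 9386 CPM. Dlx1, Mag, Opalin, Olig2, C1qa and Cldn5 had no count in any Arc-dVenus+ library. In bulk tissue, fewer cells of a type and less RNA per cell cannot be told apart.

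To show the DNA at which these genes start, the RefSeq promoter table (build GRCm38.p6, 250 bases before to 50 bases after each start) was searched for motifs of activity-regulated transcription factors. It held 14 promoters of 8 of the 10 genes, of which 7 belong to Bdnf. The motifs, searched on both strands, were the cyclic AMP response element (CRE, TGACGTCA), the CRE core (TGACG, which every full CRE contains), the AP-1 site (TGANTCA), the E-box (CACGTG), the EGR site (GCGNGGGCG) and the SRF serum response element. Of the 14 promoters, 3 held a match to any of them. The share of all promoters with a match to any of the motifs was not computed. Numbered in the order of their starts, Bdnf promoter 2 had an AP-1 site whose first base lay 152 bases upstream of the start, and Bdnf promoter 3 had a CRE core on the minus strand, 35 bases upstream. The Acvr1b promoter had an E-box 54 bases upstream and an EGR site 21 bases upstream. Of all 32851 promoters in the table, 20.8% held a CRE core, 7.81% an AP-1 site, 7.15% an E-box, 5.55% an EGR site, 1.79% a full CRE and 1.63% an SRF element, and a match of letters does not show that a factor binds. The Bdnf promoters with a match and the Inhba promoter are printed 5′ to 3′ on the plus strand because Bdnf and Inhba had the highest fold changes of the 10 genes. Capitals mark the match, and the capitals in Bdnf promoter 3 are the reverse complement of TGACG.
Bdnf promoter 2, chr2:109676782-109677081: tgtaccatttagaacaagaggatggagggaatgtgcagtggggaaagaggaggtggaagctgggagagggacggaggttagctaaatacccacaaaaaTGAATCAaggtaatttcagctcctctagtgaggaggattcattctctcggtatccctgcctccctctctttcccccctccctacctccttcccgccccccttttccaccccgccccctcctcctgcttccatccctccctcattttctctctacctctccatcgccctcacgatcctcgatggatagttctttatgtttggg
Bdnf promoter 3, chr2:109692186-109692485: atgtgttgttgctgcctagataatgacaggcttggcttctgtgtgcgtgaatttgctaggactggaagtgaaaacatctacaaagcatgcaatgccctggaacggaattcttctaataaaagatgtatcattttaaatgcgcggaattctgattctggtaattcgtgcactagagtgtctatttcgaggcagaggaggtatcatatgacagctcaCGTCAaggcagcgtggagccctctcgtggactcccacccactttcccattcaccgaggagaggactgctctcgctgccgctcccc
Inhba promoter, chr13:16011601-16011900: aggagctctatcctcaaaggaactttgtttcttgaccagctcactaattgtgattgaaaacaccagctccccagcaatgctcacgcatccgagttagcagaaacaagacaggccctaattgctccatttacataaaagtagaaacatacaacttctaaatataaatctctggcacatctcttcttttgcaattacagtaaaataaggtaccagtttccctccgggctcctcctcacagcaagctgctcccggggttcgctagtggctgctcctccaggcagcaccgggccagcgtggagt
No capitals stand in the Inhba sequence because none of the motifs was found in it. The deposited counts are those of 1 transcript variant of each gene, so the Bdnf starts could not be compared.

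Whether ligands and receptors were enriched in Arc-dVenus+ neurons was asked by comparing the 5 Arc-dVenus+ libraries with the 3 bulk-tissue libraries. Genes were tested with edgeR's quasi-likelihood test and Benjamini-Hochberg adjustment, and a gene is said to have risen or fallen if its adjusted p was under 0.05 and its fold change over 2. Fold changes are from library totals rescaled by TMM factors, 0.90 to 0.98 in Arc-dVenus+ and 1.10 to 1.13 in bulk tissue. CPM levels use the totals alone, so a fold change is not the ratio of mean CPM values. With totals alone, log2 fold changes shifted by -0.26 at the median over all genes. The test covered the 12493 genes with at least 20 CPM summed over the 8 libraries, which included 8 of the 10 genes. Inhbb and Acvr2b were under that minimum, so they were read from a second fit that kept all 15437 genes. Of the 8 genes, 4 rose (Inhba, Bdnf, Ntrk3 and Ntrk2) and none fell, while 3.13% of all tested genes rose and 6.58% fell. The median log2 fold change of the 8 genes was 0.82, against 0.10 over all genes tested. The 10 genes were chosen with earlier results of these data known, so these comparisons do not test the pathways as a set. Before adjustment, 5 of the 8 had p under 0.05, all with a higher level in Arc-dVenus+ cells, as did 24.8% of all tested genes in either direction and 12.7% with a higher level. None of the 8 fell by the exact test, DESeq2 or limma-voom either. In the same 4 genes every Arc-dVenus+ library lay above every bulk-tissue library, as it did for 5.97% of all tested genes.

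Bdnf (mm9 chr2:109514857-109567204, plus strand) was measured at 127 CPM in FC39, 96.5 in FC40, 89.0 in FC23, 125 in Shock30 and 249.9 in Shock33. In bulk tissue it was at 19.6 CPM in T_FC1, 33.01 in T_S1 and 26.7 in T_S2. Every Arc-dVenus+ library was thus above every bulk-tissue library, and Shock33 stood apart from the other 4 as the highest. The means were 138 ± 65.0 CPM (SD, n = 5) and 26.5 ± 6.69 CPM (SD, n = 3), and Bdnf rose 6.22-fold in Arc-dVenus+ cells (log2 fold change 2.64, SE 0.40, adjusted p = 0.00164, edgeR). Without Shock33 the log2 fold change was 2.30, with adjusted p = 8.3e-04 by the same test. Counts behind these values were 1286 to 3030 in Arc-dVenus+ libraries and 145 to 325 in bulk tissue. Counting error from the number of reads alone was thus at most 2.79% of the level in any Arc-dVenus+ library. The RNA was amplified before sequencing, and error from that step is not in this figure. The spread between Arc-dVenus+ libraries was 47.3% of the mean (coefficient of variation), against a median of 53.1% over all tested genes.

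Inhba (mm9 chr13:16103684-16119044, plus strand), which encodes the beta A subunit of activin A, rose most among the 10 genes. It was at 164 CPM in FC39, 248 in FC40, 184 in FC23, 152 in Shock30 and 428 in Shock33. The bulk-tissue libraries had 22.9 CPM in T_FC1, 18.2 in T_S1 and 27.0 in T_S2. The lowest Arc-dVenus+ library was 6.72 times the bulk-tissue mean and the highest was 18.9 times. Means were 235 ± 114 CPM (SD, n = 5) and 22.7 ± 4.41 CPM (SD, n = 3), and the TMM-scaled rise was 12.4-fold (log2 fold change 3.63, SE 0.41, adjusted p = 2.8e-04, edgeR). Without Shock33, again the highest library, the log2 fold change was 3.30 with adjusted p = 8.9e-05 (edgeR). Shock33 also had the highest summed microglial markers of the Arc-dVenus+ libraries, at 66.4 CPM against 0.455 to 35.4 CPM in the other 4 and 207 to 262 CPM in bulk tissue. Among the Arc-dVenus+ libraries, Shock33 also had the lowest total counts (10223586) and the most genes with no count (2631). The part of microglia or of depth in the levels of Bdnf and Inhba in Shock33 was not tested.

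Inhbb (mm9 chr1:121312042-121318825, minus strand), the gene of the beta B subunit, was near the limit of detection. It had 12 counts in FC39, 1 in FC40, none in FC23, 15 in Shock30 and none in Shock33, which is 0 to 0.705 CPM. Bulk tissue had 32 counts in T_FC1, 19 in T_S1 and 21 in T_S2, or 1.93 to 4.33 CPM. All Arc-dVenus+ libraries were therefore below all bulk-tissue libraries, the opposite order to Inhba, as they were for 21.4% of the 12493 tested genes and 26.4% of all 15437. With a log2 fold change of -3.08 (SE 1.39, adjusted p = 0.186, edgeR on all genes) Inhbb was not called, in a fit in which 3.19% of the 15437 genes rose and 10.2% fell. In the 2 libraries without a count, 3 counts would be 0.136 and 0.293 CPM, which covers counting error only.

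**Figure D1:**
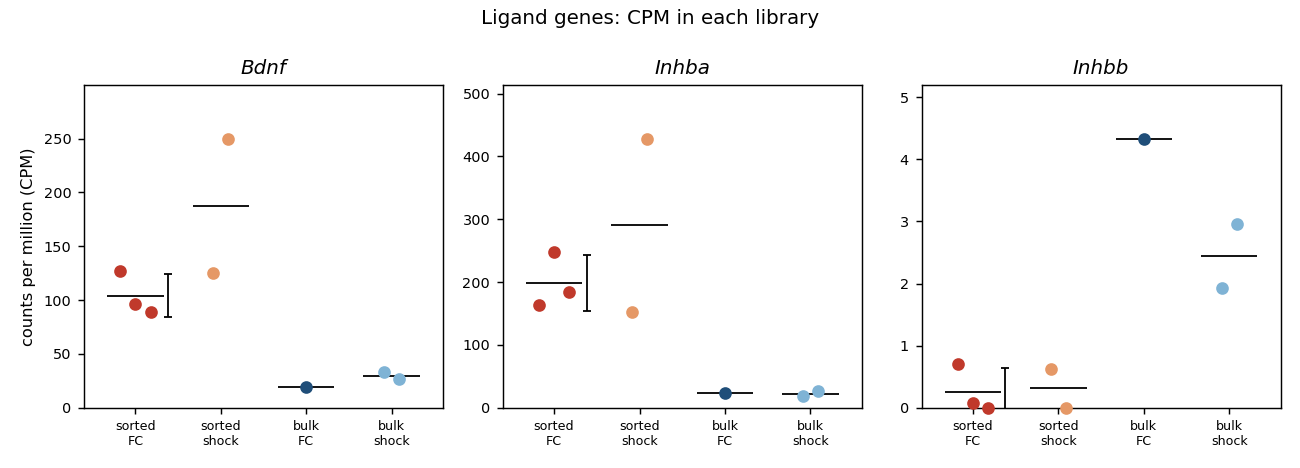
Levels of the ligand genes Bdnf, Inhba and Inhbb in CPM (vertical axis, from 0) in each library (points), by group: Arc-dVenus+ (sorted) FC and shock-only libraries, and bulk-tissue FC and shock-only libraries. Horizontal lines are group means, and the bar beside the group of 3 libraries is 1 SD, cut at 0. Bdnf and Inhba were higher in every Arc-dVenus+ library than in any bulk-tissue library, and Inhbb was lower in every one.

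Among the receptors, the Trk genes rose. Ntrk2 (mm9 chr13:58907957-59235331, plus strand) was at 566 CPM in FC39, 538 in FC40, 453 in FC23, 549.6 in Shock30 and 689.9 in Shock33. It was at 318 CPM in T_FC1, 317 in T_S1 and 329.8 in T_S2. The groups did not overlap, and the bulk-tissue libraries differed from one another by far less than the Arc-dVenus+ libraries did. Means were 559 ± 85.2 CPM (SD, n = 5) and 321 ± 7.24 CPM (SD, n = 3), and the TMM-scaled rise was 2.08-fold (log2 fold change 1.06, SE 0.16, adjusted p = 0.00159, edgeR). This lies at the 2-fold threshold: the adjusted p stayed under 0.05 but the log2 fold change was 0.96 without Shock33 and 0.80 when libraries were scaled by their totals alone.

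Ntrk3 (mm9 chr7:85337248-85723294, minus strand) was at 224 CPM in FC39, 290.4 in FC40, 316 in FC23, 139 in Shock30 and 291 in Shock33. Bulk tissue had 104 CPM in T_FC1, 107 in T_S1 and 109 in T_S2. Shock30 was the lowest of the Arc-dVenus+ libraries and still above all of bulk tissue. Means were 252 ± 71.9 CPM (SD, n = 5) and 107 ± 2.73 CPM (SD, n = 3), and Ntrk3 rose 2.82-fold (log2 fold change 1.495, SE 0.26, adjusted p = 0.00369, edgeR). Both Trk genes also give truncated receptors without the kinase domain, and because the authors counted 1 transcript variant per gene, full-length and truncated forms were not compared. The truncated TrkB form is known from astrocytes, whose summed markers were at 8054 to 9386 CPM in bulk tissue, and the part of astrocytes in the level of Ntrk2 was not tested.

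Sort1 (mm9 chr3:108087009-108164429, plus strand) was at 618 CPM in FC39, 671 in FC40, 830.0 in FC23, 464 in Shock30 and 718 in Shock33. Its bulk-tissue levels were 509.9 CPM in T_FC1, 539.8 in T_S1 and 521 in T_S2. In 4 of the 5 Arc-dVenus+ libraries it was above all of bulk tissue, and in Shock30 it was below. The log2 fold change was 0.59 (SE 0.18, adjusted p = 0.0514, edgeR), under the 2-fold threshold and just over the threshold of the test. Without Shock30 it was 0.79 with adjusted p = 0.00623 (edgeR), still less than 2-fold. An antisense transcript, Gm12523, overlaps Sort1, and reads of the 2 could not be told apart if counting ignored strand, which is not given in the sources used here.

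Among the 10 genes, the activin receptor genes that passed the minimum did not pass the test. Acvr1b (mm9 chr15:101004556-101043032, plus strand) is a type I receptor gene of activin signalling. It was at 194 CPM in FC39, 87.9 in FC40, 159 in FC23, 239 in Shock30 and 87.2 in Shock33. Bulk tissue had 128, 121 and 119.7 CPM in T_FC1, T_S1 and T_S2. Acvr2a (mm9 chr2:48669629-48758789, plus strand), a type II receptor gene, was at 141 CPM in FC39, 103 in FC40, 140.3 in FC23, 139 in Shock30 and 104 in Shock33, against 130.3, 126 and 118 CPM in bulk tissue. For both genes 3 Arc-dVenus+ libraries were above all of bulk tissue and the other 2 below it, and those 2 were FC40 and Shock33, the Arc-dVenus+ libraries with the lowest total counts (13319842 and 10223586). Their log2 fold changes were 0.58 (SE 0.34, adjusted p = 0.352, edgeR) and 0.27 (SE 0.20, adjusted p = 0.469, edgeR). The 95% bounds, from the SE and a normal distribution, were -0.09 and 1.25 for Acvr1b and -0.12 and 0.65 for Acvr2a, so a 2-fold rise lies inside the first interval and outside the second. The part of depth in this split was not tested.

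Acvr1 (mm9 chr2:58241055-58419568, minus strand), a type I receptor gene used mainly by bone morphogenetic proteins, was at 42.5 CPM in FC39, 26.8 in FC40, 39.2 in FC23, 24.0 in Shock30 and 48.1 in Shock33, against 25.9, 26.9 and 32.6 CPM in bulk tissue. The groups overlapped (log2 fold change 0.59, SE 0.35, adjusted p = 0.352, edgeR). Acvr2b (mm9 chr9:119311562-119342619, plus strand), the other type II receptor gene, had 8 counts in FC39, none in FC40, 13 in FC23, 31 in Shock30 and none in Shock33, or at most 1.28 CPM. Its bulk-tissue levels of 1.42 to 2.30 CPM rest on 13 to 17 counts per library. Every Arc-dVenus+ library was below every bulk-tissue library, as for 26.4% of the 15437 genes, and Acvr2b was not called (log2 fold change -1.61, SE 1.35, adjusted p = 0.519, edgeR on all genes). Acvr1 overlaps Gm17409 and Acvr2a overlaps Orc4 on the other strand, so their counts carry the same doubt as those of Sort1.

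**Figure D2:**
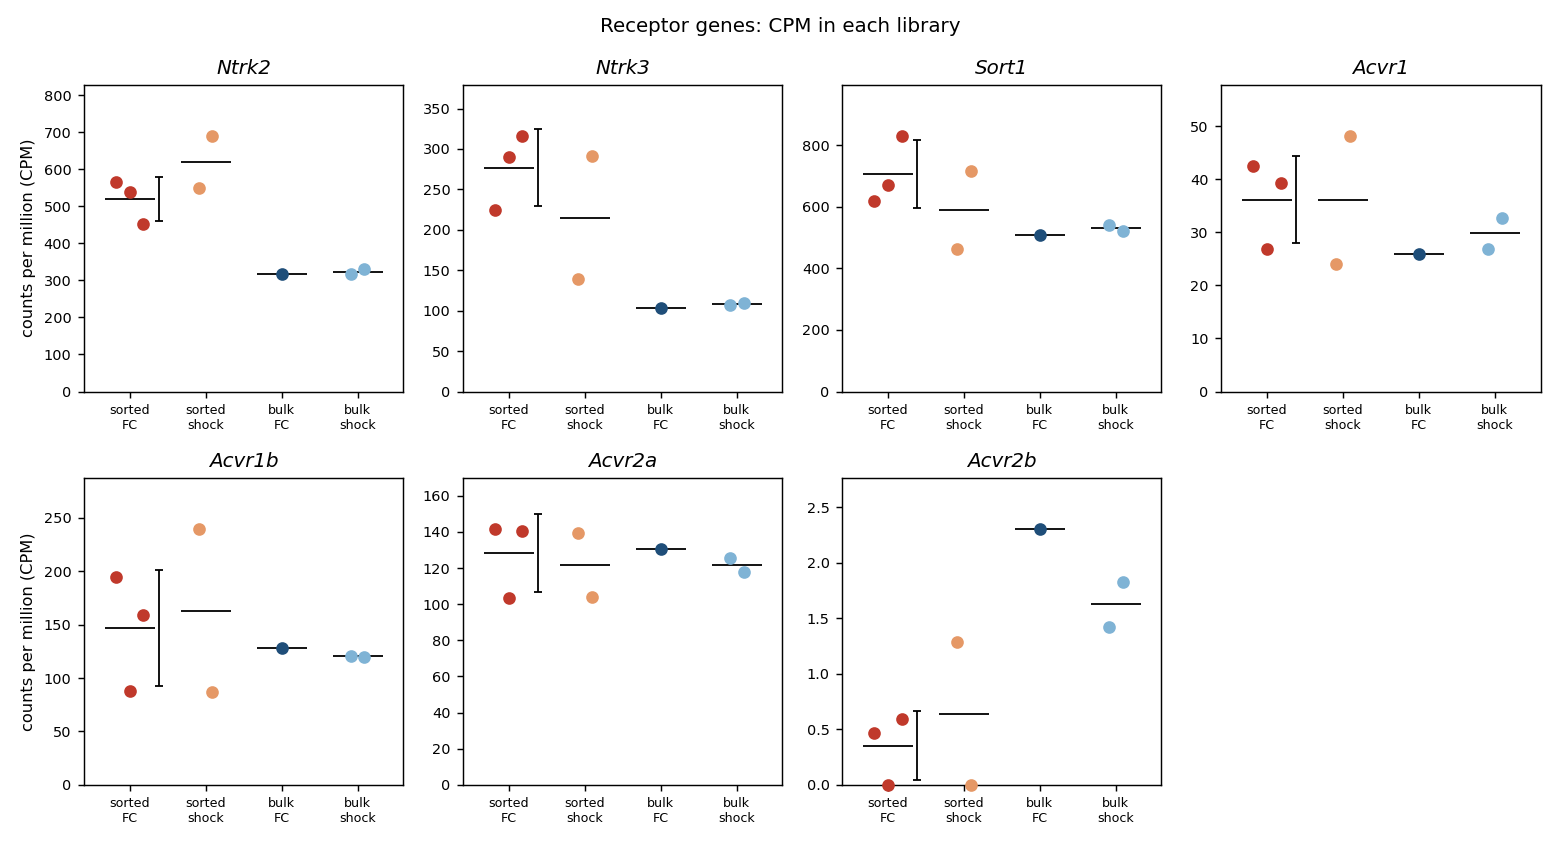
Levels of the 7 receptor genes in CPM (vertical axes, from 0, scaled per gene) in each library (points), by group as sorted Arc-dVenus+ or bulk tissue and FC or shock-only. Horizontal lines are group means and the bar beside the group of 3 libraries is 1 SD. Ntrk2 and Ntrk3 were higher in all 5 Arc-dVenus+ libraries, the groups of Sort1, Acvr1, Acvr1b and Acvr2a overlapped, and Acvr2b stayed at or under 2.30 CPM everywhere.

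Among the 8 genes above the minimum, which leaves out Inhbb and Acvr2b, the Arc-dVenus+ libraries differed from bulk tissue most in Inhba and Bdnf, followed by Ntrk3 and Ntrk2. The ratio of a library's CPM to the bulk-tissue mean ran from 6.72 to 18.9 for Inhba and from 3.36 to 9.45 for Bdnf. It ran from 1.30 to 2.97 for Ntrk3, from 1.41 to 2.15 for Ntrk2 and from 0.89 to 1.59 for Sort1. For Acvr1, Acvr1b and Acvr2a it lay between 0.71 and 1.95. Ntrk2 and Acvr2a varied little between Arc-dVenus+ libraries, with coefficients of variation of 15.2% and 16.1% against the median of 53.1% over all tested genes, whereas in bulk tissue the median was 11.5%. These medians cover genes of all levels, and genes of a like level were not compared.

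**Figure D3:**
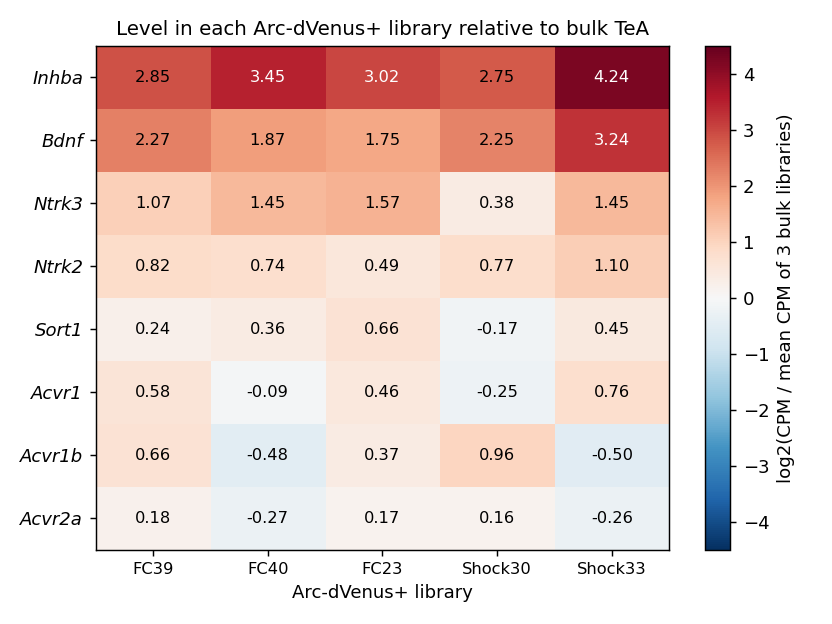
Log2 ratio of the CPM in each Arc-dVenus+ library (columns) to the mean CPM of the 3 bulk-tissue libraries, for the 8 genes that passed the minimum (rows), with red above and blue below 0. Inhba and Bdnf were above 0 in every library and highest in Shock33 (4.24 and 3.24), while Acvr1b and Acvr2a were below 0 in FC40 and Shock33.

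The other genes of both pathways were read list by list, against the 3.13% of all tested genes that rose and the 6.58% that fell. Of 21 tested genes of neurotrophin signalling, 2 rose and 2 fell, and of 19 tested genes of activin signalling, 2 rose and none fell, with a median log2 fold change of 0.03 in each list against 0.10 over all genes. Sorcs3, a gene of the sortilin receptor family, rose from 54.8 ± 6.60 CPM (SD, n = 3) to 224 ± 62.1 CPM (SD, n = 5), with every Arc-dVenus+ library higher (log2 fold change 2.30, SE 0.29, adjusted p = 5.2e-04, edgeR). Grb2, an adaptor that links receptor tyrosine kinases to Ras, rose from 47.0 ± 5.27 to 79.7 ± 14.9 CPM (log2 fold change 1.03, SE 0.26, adjusted p = 0.0235, edgeR). Ntf5, the gene of neurotrophin-4, another TrkB ligand, fell from 203 ± 16.98 CPM in bulk tissue to 21.9 ± 7.14 CPM in Arc-dVenus+ cells (log2 fold change -2.96, SE 0.29, adjusted p = 1.3e-04, edgeR). Gab1, a docking protein downstream of receptor tyrosine kinases, fell from 538 counts in bulk tissue to 1 count in the Arc-dVenus+ libraries together, or 1601 times lower (95% counting interval 286 to 63360). That interval leaves out the spread between libraries. The fit gave Gab1 a log2 fold change of -9.71 (SE 1.14, adjusted p = 3.7e-04, edgeR). Ngfr, the p75 neurotrophin receptor gene, had 1.20 to 5.43 CPM in Arc-dVenus+ cells and 14.9 to 18.4 CPM in bulk tissue, with adjusted p = 0.0711 (edgeR).

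In the activin list, Acvr1c, the gene of the type I receptor ALK7, rose from 82.0 ± 17.1 CPM (SD, n = 3) to 172 ± 44.4 CPM (SD, n = 5), with every Arc-dVenus+ library above bulk tissue (log2 fold change 1.32, SE 0.26, adjusted p = 0.00659, edgeR). Pmepa1, a transmembrane inhibitor of SMAD signalling, rose from 64.0 ± 8.10 to 107 ± 33.2 CPM, at the fold threshold (log2 fold change 1.00, SE 0.28, adjusted p = 0.0410, edgeR). The signal carriers did not pass: Smad2 had a log2 fold change of -0.19, Smad3 of 0.72 and Smad4 of -0.64, with adjusted p of 0.884, 0.187 and 0.384 (edgeR). Fst, the gene of the activin-binding protein follistatin, was at 2.56 ± 2.57 CPM in Arc-dVenus+ cells and 8.82 ± 3.20 CPM in bulk tissue (adjusted p = 0.407, edgeR), and Tgfbr3, the betaglycan gene, at 0.0453 to 6.23 and 18.3 to 30.3 CPM (adjusted p = 0.110, edgeR). Grb2 missed a threshold when Shock30 or any single bulk-tissue library was left out (log2 fold change 0.98 to 1.12), Pmepa1 when FC23 or any single bulk-tissue library was (0.80 to 1.10), and Acvr1c without T_FC1 (1.16, adjusted p = 0.0532). Pmepa1 also missed a threshold with condition as a covariate (adjusted p = 0.0610, edgeR), by limma-voom (adjusted p = 0.0870) and with libraries scaled by their totals alone (log2 fold change 0.74), and Grb2 by limma-voom (adjusted p = 0.0530) and with that scaling (0.76).

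Related receptors moved in both directions. Of the 6 tested receptor genes of the TGF-beta family outside the 10, Acvr1c and Bmpr2 rose, Tgfbr1, Tgfbr2 and Bmpr1b fell, and Bmpr1a did not pass. Bmpr2, a type II receptor gene for bone morphogenetic proteins, was at 293 to 489 CPM in Arc-dVenus+ cells and 179 to 209 CPM in bulk tissue (log2 fold change 1.25, SE 0.21, adjusted p = 0.00311, edgeR). Bmpr1b was at 3.08 to 5.40 CPM against 29.5 to 37.9 CPM (log2 fold change -2.73, SE 0.44, adjusted p = 0.00238, edgeR). The TGF-beta receptor genes had few counts in Arc-dVenus+ libraries: Tgfbr1 had 29 counts in FC23, 1 in Shock33 and none in the other 3 libraries, against 220 to 368 in bulk tissue, and Tgfbr2 had 5 counts, all in Shock30, against 93 to 171. Their adjusted p were 0.0136 and 0.00393 (edgeR), and that of Tgfbr1 was 0.0579 without T_FC1 and 0.0558 without T_S1. Acvrl1, an endothelial type I receptor gene under the minimum, fell in the fit to all genes, with 1 count against 93, a ratio of 277 (95% counting interval 48.5 to 11049).

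Of 8 tested ligand genes of the family, 1 fell and none rose. Bmp6 had no count in any Arc-dVenus+ library and 6.90 to 7.88 CPM in bulk tissue, so that it was at least 177-fold lower against a floor of 3 counts over the 5 libraries (adjusted p = 0.0052, edgeR). Such bounds cover counting error only. Among ligand genes under the minimum, Tgfb1, Bmp5 and Gdf11 likewise were not counted in any Arc-dVenus+ library, which put them at least 72.4-, 95.2- and 70.4-fold lower, and each fell in the fit to all genes. Bmp3 was at 34.2 to 123 CPM against 39.8 to 44.6 CPM (log2 fold change 1.14, adjusted p = 0.0765, edgeR) and was not called, nor was Bmp4 at 4.39 to 8.51 CPM against 12.8 to 21.9 CPM (adjusted p = 0.224, edgeR). Over the 4 lists, in which 52 genes were tested, 5 rose and 6 fell with a median log2 fold change of -0.01, and the 6 that fell were low in cells in which markers of glia, vessels and inhibitory neurons were also low. The part of those cell types in these differences was not tested.

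**Figure D4:**
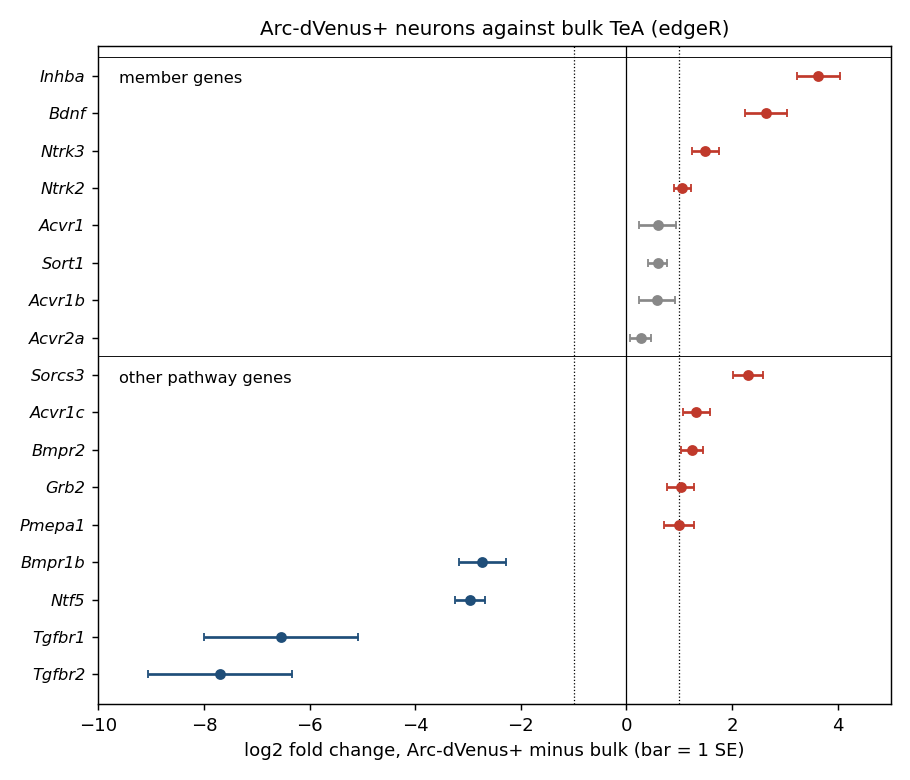
Log2 fold change of Arc-dVenus+ over bulk-tissue libraries (horizontal axis) with 1 SE (bars), for the 8 tested ligand and receptor genes (marked member genes) and for the other pathway genes that rose (red) or fell (blue) with more than 3 counts in Arc-dVenus+ cells. Grey genes did not pass, and dotted lines mark 2-fold. Inhba (3.63) and Bdnf (2.64) lie farthest right, and Ntrk2 (1.06), Grb2 (1.03) and Pmepa1 (1.00) lie on the dotted line.

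Whether the tone mattered was asked by comparing the 3 FC with the 2 shock-only Arc-dVenus+ libraries. None of the 8 genes passed (edgeR, adjusted p under 0.05), nor did any of the 12493 genes, 0.0% of the table, while 6.35% of all genes had an unadjusted p under 0.05. Of the 8, only Bdnf had an unadjusted p under 0.05. Its level was 104 ± 20.3 CPM (SD, n = 3) in FC libraries, against 125 CPM in Shock30 and 249.9 CPM in Shock33, and the groups overlapped because FC39 lay above Shock30 (log2 fold change of FC over shock -0.92, SE 0.38, adjusted p = 0.773, edgeR). Inhba was at 199 ± 44.2 CPM (SD, n = 3) in FC libraries, against 152 and 428 CPM in the shock-only ones, which lay on either side (log2 fold change -0.61, SE 0.43, adjusted p = 0.848, edgeR). Without Shock33 that difference was 0.31, so its direction rested on 1 library. The other 6 genes had log2 fold changes between -0.33 and 0.30, with SE of 0.23 to 0.58, and in all 8 genes the groups overlapped. DESeq2 passed 147 genes in this comparison, 1.18% of those tested, and none of the 8.

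The enrichment was also compared between conditions. In a fit of 4 groups, Inhba differed between Arc-dVenus+ and bulk tissue by 3.37 (SE 0.69) on the log2 scale in FC and 3.96 (SE 0.54) in shock-only libraries, and Bdnf by 2.65 (SE 0.53) and 2.93 (SE 0.41). For Ntrk2 the differences were 0.95 (SE 0.25) and 1.22 (SE 0.21), and for Ntrk3 1.66 (SE 0.46) and 1.27 (SE 0.37). Inhba, Bdnf and Ntrk2 passed in shock-only libraries (adjusted p = 0.0143, 0.0157 and 0.0254, edgeR), where 1.58% of all genes rose. That fit takes its spread from all 8 libraries: in a fit to the 4 shock-only libraries alone, the adjusted p of each of these 3 genes was 0.0869 and no gene of the 12493 passed (edgeR), while 3007 had an unadjusted p under 0.05. None of the 8 passed in FC libraries, where 0.32% of all genes rose and a single bulk-tissue library was assumed to vary like the rest. No interaction of condition and sample type passed for any of the 8 genes or of the 12493 (edgeR), and none of the 8 had an unadjusted p under 0.05, as 2.47% of all genes did. DESeq2 passed 11 genes, 0.088% of the table, and none of the 8. Inhba and Bdnf kept their direction in both conditions, but a difference in enrichment between FC and shock-only mice was not detectable with 1 FC bulk-tissue library.

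The genes whose profiles over the 8 libraries were most like those of the ligands were found by the root-mean-square difference of log2(CPM + 1), each profile centred on its own mean, among 7112 other genes with a mean of at least 20 CPM. For Bdnf these were Ptgs2, C1ql3 and Ina, at 0.30, 0.38 and 0.39, against a median of 1.33 over all genes compared. For Inhba they were Nptx2, Pter and C1ql3, at 0.43, 0.52 and 0.55, against a median of 1.74. Ptgs2, the inducible cyclooxygenase gene, was at 196 ± 72.6 CPM (SD, n = 5) in Arc-dVenus+ and 41.3 ± 5.22 CPM (SD, n = 3) in bulk-tissue libraries, and Nptx2, the gene of a secreted pentraxin found at excitatory synapses, at 138 ± 42.4 and 14.9 ± 5.44 CPM. Like Bdnf and Inhba, all 5 of these genes were highest in Shock33. They were selected for likeness over these same libraries, so the shared peak is not a separate result. Bdnf and Inhba differed by 0.63 from each other, which placed Bdnf 8th in likeness to Inhba and Inhba 49th in likeness to Bdnf. The 8 libraries share the split into sorted cells and bulk tissue, which all these profiles follow. The authors used Ptgs2, like Inhba, as a layer marker of excitatory neurons.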

How the data were processed

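RNA-Seq was analysed in 5 Arc-dVenus+ and 3 bulk-tissue libraries, each from 1 mouse. The authors amplified RNA with the Ovation RNA-Seq kit, aligned reads to mm9 with RUM 1.11 (per the submitters' processing notes), discarded reads that aligned to several places, and deposited raw counts for 1 transcript variant of each gene. The deposited CPM values were recomputed from the counts and library totals (largest difference 0.0005). Other sheets hold the authors' own fold changes, p-values and gene selections, which were not used. The labels and methods differ on how many cells were pooled, and a further bulk-tissue control that the treatment text mentions was not analysed here.

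Counts were tested with edgeR 4.0.16 in R 4.3.3 (quasi-likelihood test, TMM factors of 0.90 to 0.98 in Arc-dVenus+ and 1.10 to 1.13 in bulk tissue), with limma 3.58.1 and DESeq2 1.42.0 as alternatives, and tabulated with pandas 2.3.3 and scipy 1.17.1. Figures were drawn with matplotlib 3.10.9. The standard error is the log2 fold change over the square root of F. The p-values set a difference between groups against the spread between libraries. For Arc-dVenus+ against bulk tissue, edgeR fitted a common spread to both groups, although their spreads differed. Depth was 10223586 to 24151755 counts in Arc-dVenus+ and 7110598 to 9846374 in bulk tissue; floors of 3 counts and 95% exact intervals cover counting error only and use TMM-scaled totals. No 2 libraries agreed within sampling noise. The quasi-likelihood test was run on simulated counts with the same dispersion for every gene and library. In the data, the median coefficient of variation was 53.1% in Arc-dVenus+ and 11.5% in bulk-tissue libraries. The simulation therefore did not cover that unequal spread.

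The 10 genes and all lists were chosen with earlier results of these data known. Named genes were the 10, every list gene that rose or fell, up to 3 genes of lowest p in a list, and the 3 most like Bdnf and Inhba. Smad2, Smad3, Smad4, Fst, Ngfr and Bmpr1a were named after their values were seen. Of 71 genes in the lists, 64 were in the table, and the other 7 were not analysed here. Positions are from GENCODE M1 on mm9. Alternatives were other tests, scalings and minimum levels, each library left out, condition as covariate and shock-only libraries alone.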

Additional observations from a re-analysis of the deposited data

Results flagged for a closer look

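The level of 6 of the 29 genes checked stood apart in 1 Arc-dVenus+ library, as a gap to the nearest of the other 4 above 0.71 of the whole range. For normally distributed values, chance gives such a gap in about 1 in 20 groups of 5. That figure does not apply to a gene counted in a single library, where the gap is the whole range by construction. The share of all tested genes with such a gap was not computed, so how common it is in these libraries is not known. Among the 10 ligands and receptors, Bdnf was at 249.9 CPM in Shock33 against 89.0 to 127 CPM in the other 4. Grb2 was at 106 CPM in Shock30 against 67.3 to 76.4 CPM. Tgfbr1 was at 1.31 CPM in FC23 (29 counts) against 0 to 0.0978 CPM. Tgfbr2 was at 0.207 CPM in Shock30, Gab1 at 0.0978 CPM in Shock33 and Acvrl1 at 0.0587 CPM in FC39, on 5, 1 and 1 counts, and each of these 3 had no count in the other 4 libraries.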

How the results depend on the processing

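No alternative turned the direction of Inhba, Bdnf or Ntrk3, and each rose in every setting except the shock-only libraries alone. Including that setting, log2 fold changes were 3.30 to 4.04 for Inhba, 2.30 to 3.00 for Bdnf and 1.24 to 1.75 for Ntrk3. With the shock-only libraries alone, adjusted p was 0.0869 for Inhba, Bdnf and Ntrk2 and 0.175 for Ntrk3. There 0 genes rose and 0 fell, among the 10, the lists and the whole table (edgeR), although 3007 genes, 4 of the 8 tested here among them, had an unadjusted p under 0.05. Scaling by library totals alone shifted all genes by -0.26 at the median, left 3 of the 8 genes risen, and gave 147 risen and 1012 fallen genes against 391 and 822, with 2 list genes risen. Bmpr2 then missed the fold threshold (0.99). DESeq2 gave 646 risen genes, limma-voom 248 risen and 1218 fallen, with 3 list genes risen and 9 fallen. Fallen genes numbered 1577 with no minimum and 1304 with at least 1 CPM in 3 libraries. With 1 library left out, 3 to 4 of the 8 genes rose, 199 to 608 genes rose and 465 to 960 fell in the table, and 2 to 6 rose and 5 to 8 fell in the lists; fewest rose in the table without T_FC1 and most without Shock30. For FC against shock only, DESeq2 passed 147 genes, and leaving out 1 library 0 to 1. For the interaction, DESeq2 passed 11 genes and leaving out 1 library none. The cause of these changes was not tested.

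Directions turned only for values that passed no test. In FC against shock only, leaving out 1 library gave -0.13 to 0.92 for Ntrk3, -0.081 to 0.53 for Sort1, -1.16 to 0.31 for Inhba, -0.48 to 0.51 for Acvr1, -0.79 to 0.69 for Acvr1b and -0.20 to 0.25 for Acvr2a. Scaling by totals gave 0.0050 for Acvr1 and DESeq2 -0.0080 for Acvr2a. In the interaction, for which leaving out libraries was chosen after seeing the data, the ranges were -0.68 to 0.27 for Bdnf, -0.032 to 1.00 for Ntrk3, -1.14 to 0.31 for Inhba, -0.23 to 0.73 for Acvr1, -0.86 to 0.64 for Acvr1b and -0.28 to 0.18 for Acvr2a. No paired analysis applied, because the authors list the bulk-tissue mice apart from the mice whose cells were sorted. Levels per transcript length were not run, so levels were not compared between genes.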
